A study of Mus musculus with 12 samples.

Results

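The regions described here carried an ATAC-seq peak in WDM-CDO and in CDM-WDO and none in WDM-WDO or CDM-CDO, so that a peak was called where WD had reached either the mothers or the offspring, but not where it had reached both or neither. Peaks of 4 lists were merged wherever they overlapped by at least 1 bp on chromosomes 1 to 19 and X, which gave 48003 regions. Of these, 614 met the rule (1.28%), and they are called members below. They were chosen by the presence of peaks in the same 4 lists, so their presence and absence is a description and not a finding.

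The study asked how a diet of the mothers marks the chromatin of endothelial cells in their offspring. Open chromatin was mapped in mouse aortic endothelial cells (MAECs), with 2 samples and 1 deposited peak list for each of 4 groups. The labels abbreviate the diets as WD and CD, and the title speaks of a high-fat diet of the mothers. M was taken for the mothers and O for the offspring. In WDM-CDO the mothers received WD and the offspring CD. In CDM-WDO the mothers received CD, and the offspring were put back on WD for 4 weeks. In WDM-WDO the mothers received WD, and the offspring were likewise put back on WD for 4 weeks. In CDM-CDO both generations received CD. The strain, genotype, sex and age of the mice, and how many aortas were combined for a sample, are not given in the sources used here. Peak names in the files carry the tag 08w in the CDO groups and 12w in the WDO groups, so the offspring diet and whatever this tag marks cannot be told apart.

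ATAC-seq uses a transposase that cuts and tags DNA where nucleosomes leave it accessible, mostly at promoters and enhancers. Endothelial cells line the vessel wall and hold its barrier through junction proteins such as VE-cadherin and claudin-5, and their identity is kept by transcription factors of the ETS and SOX families. In atherosclerosis these cells are exposed to excess lipid, let lipoproteins pass and recruit white blood cells.

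Promoter sequences of 4 members are shown first, since they are the DNA on which the strongest gene-end members and the endothelial members lie. Hoxa5, a homeobox transcription factor gene, and Nudt4, which encodes a hydrolase of inositol pyrophosphates, had the highest-ranked members that overlap a promoter window at hand. Erg, an ETS factor of endothelial cells, and Cldn5, the gene of claudin-5, belong to the endothelial list described below. The Erg window is that of a start inside the gene, and its member lies 99953 bp from the nearest gene end. The windows run from 250 bases before to 50 bases after a transcription start, 5′ to 3′ on the strand of the gene, and come from RefSeq, build GRCm38.p6. They lie at chr6:52204538-52204837 (minus strand) for Hoxa5, chr10:95564097-95564396 (minus) for Nudt4, chr16:95459299-95459598 (minus) for Erg and chr16:18776597-18776896 (plus) for Cldn5. Capitals mark matches, on either strand, to 14 short motifs, which here were the GC box (GGGCGG), the KLF motif (CCACCC), the GATA motif (AGATAA) and the CCAAT box (CCAAT).
Hoxa5: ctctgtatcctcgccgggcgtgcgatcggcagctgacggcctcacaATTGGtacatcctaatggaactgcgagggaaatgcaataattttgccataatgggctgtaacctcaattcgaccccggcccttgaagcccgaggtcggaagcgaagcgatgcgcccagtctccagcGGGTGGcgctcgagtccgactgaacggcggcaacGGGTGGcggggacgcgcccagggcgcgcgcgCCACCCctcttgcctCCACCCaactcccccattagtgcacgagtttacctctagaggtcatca
Nudt4: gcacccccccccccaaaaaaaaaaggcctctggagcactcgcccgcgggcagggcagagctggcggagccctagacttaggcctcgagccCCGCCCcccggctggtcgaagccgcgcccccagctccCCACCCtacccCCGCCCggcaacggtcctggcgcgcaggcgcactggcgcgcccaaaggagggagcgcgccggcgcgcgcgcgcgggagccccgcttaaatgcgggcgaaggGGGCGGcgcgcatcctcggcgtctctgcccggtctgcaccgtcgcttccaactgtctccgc
Erg: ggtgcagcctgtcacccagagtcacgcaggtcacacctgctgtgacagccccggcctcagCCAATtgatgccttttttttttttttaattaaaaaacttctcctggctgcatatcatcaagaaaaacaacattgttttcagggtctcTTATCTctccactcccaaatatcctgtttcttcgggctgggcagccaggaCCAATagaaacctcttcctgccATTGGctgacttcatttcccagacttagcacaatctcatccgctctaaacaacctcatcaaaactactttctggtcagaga
Cldn5: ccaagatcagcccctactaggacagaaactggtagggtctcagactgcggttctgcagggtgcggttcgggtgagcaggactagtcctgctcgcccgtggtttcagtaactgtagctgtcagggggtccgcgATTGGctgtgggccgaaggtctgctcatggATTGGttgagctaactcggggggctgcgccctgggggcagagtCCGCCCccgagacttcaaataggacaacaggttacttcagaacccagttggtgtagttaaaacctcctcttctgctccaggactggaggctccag

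The Hoxa5 window held 4 KLF matches and 1 CCAAT box, and the Nudt4 window 3 GC boxes and 1 KLF match. The Erg window held 1 GATA match and 3 CCAAT boxes, and the Cldn5 window 1 GC box and 2 CCAAT boxes. At Nudt4 both summits, the bases of highest pileup, lay 6 bp downstream of the start, so the 2 lists placed the peak on the same base. At Hoxa5 they lay 63 bp downstream in WDM-CDO and 107 bp downstream in CDM-WDO. At Erg they lay 108 bp downstream and 193 bp upstream, and at Cldn5 478 bp downstream and 188 bp upstream, in WDM-CDO and CDM-WDO in that order. The whole of the Nudt4 and Cldn5 windows fell inside the member, against 290 of 300 bases at Erg and 143 of 300 at Hoxa5. A match is a stretch of letters and not a shown binding site.

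Members were weak peaks in both of their lists. Strength is given by the authors' fold enrichment, the pileup of reads at the summit over the local background, and by their −log10 q, which grows with the certainty of the call. Fold enrichment of the members had a median of 2.89 in WDM-CDO (range 1.78 to 5.70) and 2.93 in CDM-WDO (1.76 to 6.32). The median −log10 q was 3.66 in WDM-CDO and 3.44 in CDM-WDO, and the median pileup was 22 reads in both. In WDM-CDO 563 of 614 members (91.7%, 95% Wilson interval 89.2 to 93.6%) lay in the weaker 50% of the list by −log10 q. In CDM-WDO 529 did (86.2%, 83.2 to 88.7%), and no member lay in the strongest 10% of either list. Low folds were not particular to the members. Regions of WDM-WDO and CDM-CDO alone had medians of 2.87 and 2.91, and those of CDM-WDO and CDM-CDO alone 2.93 and 2.97. Those of WDM-CDO and CDM-CDO alone were higher, with 3.34 and 3.27. Wilson intervals, here and below, cover counting error only. As there was 1 list per group, no value has a replicate behind it and no difference carries a test. The number of members was 368 with a −log10 q of at least 3 asked of all 4 lists, 273 with that limit in the 2 member lists only, and 297 with each list at the length of the shortest.

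**Figure D1:**
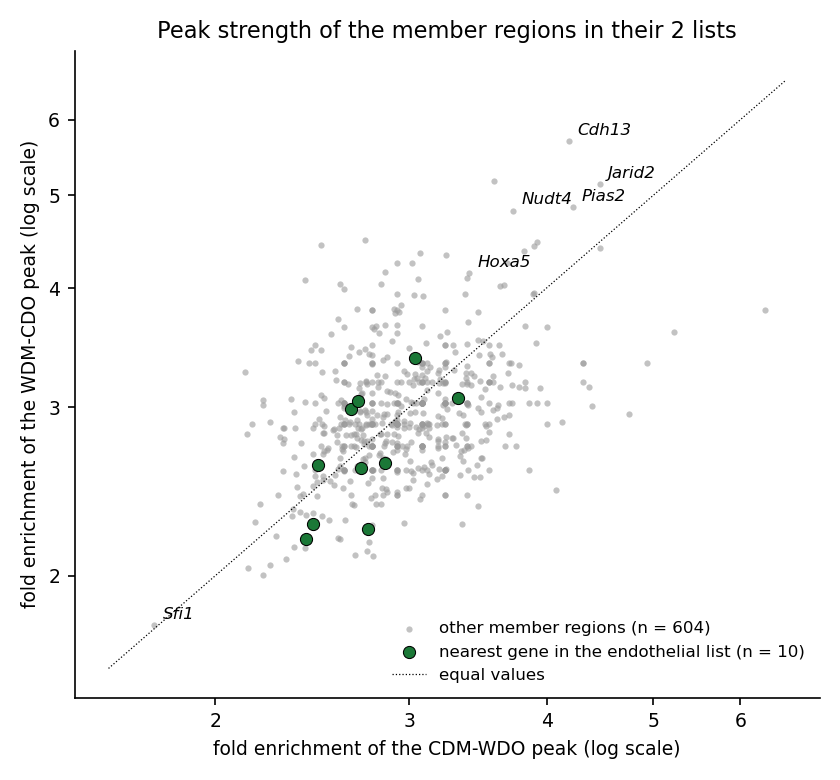
Fold enrichment of the CDM-WDO peak (x axis) and of the WDM-CDO peak (y axis) at each of the 614 members, both on log scales, with the 10 members nearest to endothelial identity genes in green and equal values on the dotted line. Most points lie near 3 on both axes, and the endothelial members lie within the cloud, between 2.19 and 3.38 in WDM-CDO and between 2.42 and 3.32 in CDM-WDO.

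In number of reads, the 2 lists gave the members much the same pileup. The pileup was higher in WDM-CDO at 273 members, equal at 65 and higher in CDM-WDO at 276, and the median log2 ratio of WDM-CDO over CDM-WDO was 0.00. At the 10351 regions held by all 4 lists the same ratio had a median of 0.77, with 85 reads in WDM-CDO against 48 in CDM-WDO as median pileups. Every member passed the threshold of both lists, where the lowest −log10 q of any call was 1.31. At 273 of the 614 members it was 3 or more in both lists. Across the 614 members, which share their libraries and this threshold, the log2 folds of the 2 lists had a Pearson r of 0.384 and a Spearman rho of 0.323, given as a description.

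Most members were overlaps of single peaks. Their median width was 648.5 bp, against 587 bp for the opposite pattern, held by WDM-WDO and CDM-CDO alone, and 526 bp for all merged regions. The other pairs of lists had medians from 622 to 660 bp, so this width was not particular to the members. Of the 614, 612 held exactly 1 peak of each list. The peaks overlapped by at least 50% of the shorter at 513 members (83.6%, 80.4 to 86.3%), with a median of 89.2%. The rule did not use summits, and the median distance between the 2 summits was 126 bp. It was 105 bp at the 998 regions that WDM-WDO held as well, 101.5 bp at the 518 shared with CDM-CDO, and 51 bp at the regions of all 4 lists. Summits within 50 bp of each other were found at 155 members (25.2%, 22.0 to 28.8%) and at 49.9% of the regions of all 4 lists. Both lists thus placed their summit less exactly on the same base at members than at the stronger shared regions.

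Regions with no called peak in a list are not shown to be closed there. The lowest pileup behind any call was 15 reads in WDM-CDO, 15 in CDM-WDO, 16 in WDM-WDO and 14 in CDM-CDO. The members' median of 22 reads lay below the whole-list medians, 38 in WDM-CDO and 31 in CDM-WDO. It left a margin above those lowest calls. For a measure of this margin, the pileup above the genome background was rescaled by the median ratio between 2 lists at the regions of all 4 lists. WDM-WDO had 0.829 and CDM-CDO 0.690 of the pileup of WDM-CDO there, and 1.5 and 1.23 times that of CDM-WDO. Rescaled from WDM-CDO, 533 members (86.8%, 83.9 to 89.3%) reached the lowest pileup called in WDM-WDO and 484 (78.8%, 75.4 to 81.9%) that in CDM-CDO. Rescaled from CDM-WDO, all 614 reached both. This was fixed in advance, as the lowest CDM-WDO call of 15 reads rescales to 20.4 reads in WDM-WDO and 16.6 in CDM-CDO. That direction therefore says nothing about the members. The lowest called pileup holds where the local background is low, so a member with a high local background would need more reads than this.

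**Figure D2:**
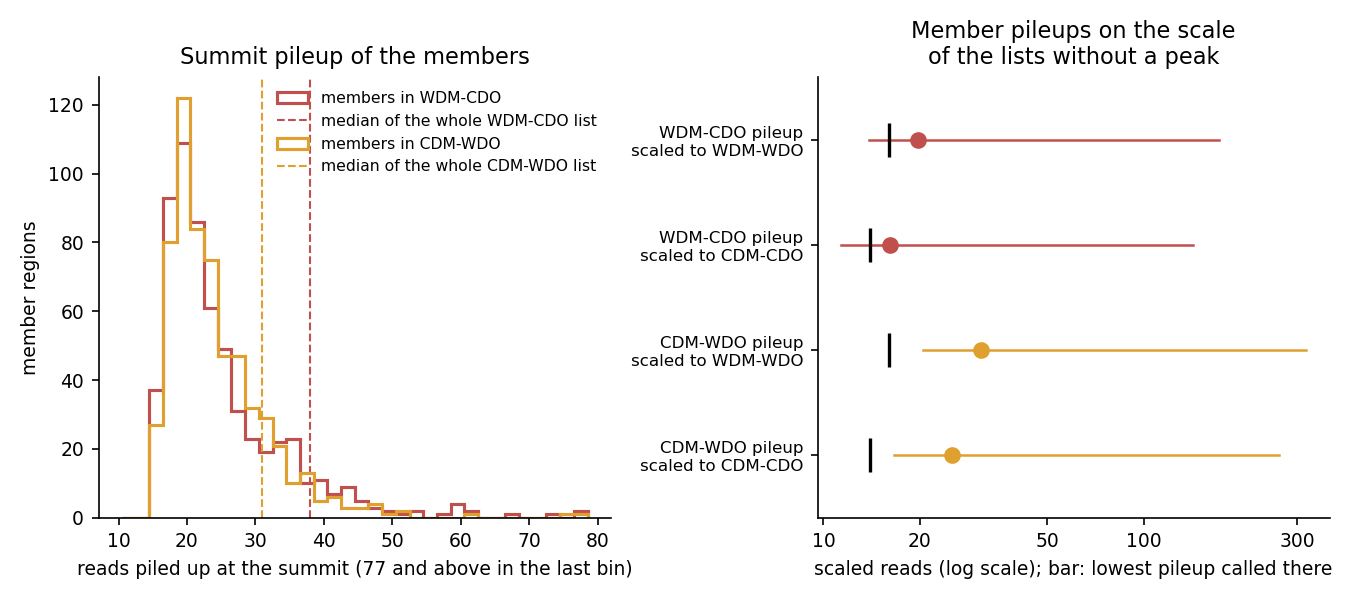
Left, reads piled up at the summit of the 614 members in WDM-CDO (red) and CDM-WDO (orange), with the median of each whole list (38 and 31 reads) as a dashed line. Right, median (point) and range (line) of the members' pileups rescaled to the 2 lists that lack a peak, on a log scale, with the lowest pileup called there as a black bar. The members crowd near 20 reads, and the WDM-CDO pileups rescaled to CDM-CDO have a median of 16.2 reads against 14 for a call.

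Each list that lacked a peak also lacked one nearby at most members. The nearest WDM-WDO peak was a median of 43762.5 bp away and the nearest CDM-CDO peak 45010 bp. At 440 members (71.7%, 68.0 to 75.1%) neither list had a peak within 10 kb. A WDM-WDO peak stood within 1 kb of 25 members and a CDM-CDO peak within 1 kb of 23. The same distances were not measured for other classes of regions, so they are not shown to be particular to the members. The Sox17 member, in the gene of a SOX factor of arterial endothelium, had both close by, a WDM-WDO peak at 385 bp and a CDM-CDO peak at 400 bp.

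The rule has a threshold, the weakest call a list admits. The weakest members just inside it lay near Olfr132 (−log10 q 1.86 in WDM-CDO and 1.33 in CDM-WDO) and at chr8:65315834-65316186, with no gene within 100 kb (3.34 and 1.33). Just outside it lay a region near Kcnk6 with 3.82 and 2.48, which WDM-WDO also held at 1.47. A region near Osgin2 with 3.34 and 2.66 was held by CDM-CDO as well at 1.51. The single comparisons that make up the rule were met by far more regions. WDM-CDO without CDM-CDO held 11493 regions (23.9% of all merged regions) and WDM-CDO without WDM-WDO 12099 (25.2%). CDM-WDO without CDM-CDO held 7570 (15.8%) and CDM-WDO without WDM-WDO 6609 (13.8%).

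By their place in the genome the members were mostly distal. A member lay within 1 kb of an end of a protein-coding gene in 82 cases (13.4%, 10.9 to 16.3%), against 20.1% of the 503 regions of the opposite pattern and 24.7% of all merged regions. The 1691 regions of WDM-CDO and WDM-WDO alone, which share the mothers' WD, were at a gene end in 18.1%. The other pairs with CDM-WDO were at a gene end less often than the members, in 8.39% with WDM-WDO alone and 11.1% with CDM-CDO alone, so the low share was not particular to the members. Among regions of all 4 lists the share was 67.4%. Inside a gene lay 272 members (44.3%), against 58.4% of the opposite pattern and 58.6% of all regions. Over 100 kb from any protein-coding gene lay 120 members (19.5%, 16.6 to 22.9%), against 8.95% of the opposite pattern and 13.6% of all regions. The share was higher, 29.9%, for the 234 regions of CDM-WDO and CDM-CDO alone.

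Members were at a gene end more often than regions that only 1 of their lists held, 9.22% for WDM-CDO alone and 3.91% for CDM-WDO alone. Beyond 100 kb they lay between these, with 18.5% for WDM-CDO alone and 34.1% for CDM-WDO alone. Peaks of CDM-WDO were also the fewest, 18962 against 28319 in WDM-CDO, 26275 in WDM-WDO and 22178 in CDM-CDO. The X chromosome carried 42 members, 6.84% of them and 2.52% of its 1666 regions (1.87 to 3.39%). It carried 11.5% of the regions of CDM-WDO and CDM-CDO alone, 3.18% of those of the opposite pattern and 3.47% of all regions. Regions of 1 list alone lay on X in 4.43% of cases for WDM-CDO, 7.02% for CDM-WDO, 1.90% for WDM-WDO and 4.73% for CDM-CDO. The part of list strength or sample makeup in these differences was not tested.

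**Figure D3:**
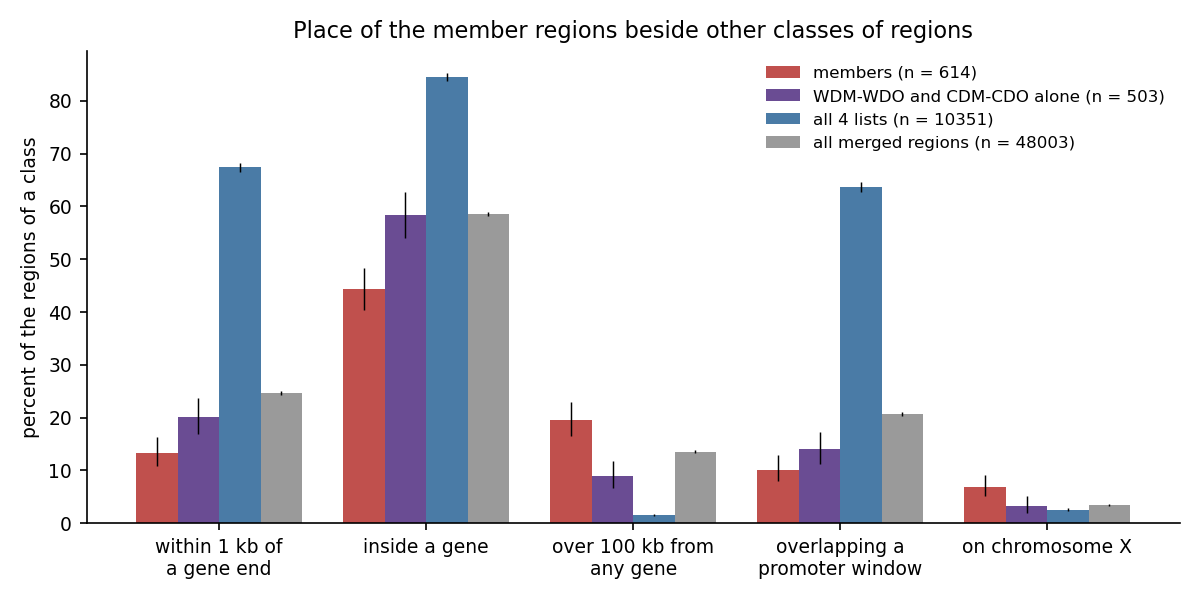
Share of the 614 members, of the 503 regions held by WDM-WDO and CDM-CDO alone, of the 10351 regions of all 4 lists and of all 48003 merged regions that fall in each place (y axis, percent), with 95% Wilson intervals. The members have the lowest bars at gene ends and inside genes, and the highest beyond 100 kb and on chromosome X. The promoter shares leave out a chromosome for which no window was at hand.

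Among members at gene ends, the 12 with the highest −log10 q in their weaker list are named first. Pias2, whose product attaches SUMO to proteins and restrains STAT signalling, had the strongest member of all, at chr18:77064762-77065238, with a fold of 4.86 in WDM-CDO and 4.23 in CDM-WDO and pileups of 68 and 42 reads. Its nearest WDM-WDO peak was 681 bp away and its nearest CDM-CDO peak 17293 bp. The Hoxa5 member (chr6:52203899-52204680) had folds of 4.15 and 3.40 and pileups of 45 and 34 reads. The nearest WDM-WDO peak was 8134 bp from it and the nearest CDM-CDO peak 7132 bp. Both were closer than the medians over all members, 43762.5 and 45010 bp. The Nudt4 member (chr10:95563977-95564533) had folds of 4.82 and 3.73, with 59 reads in WDM-CDO and 28 in CDM-WDO. A WDM-WDO peak stood 375 bp from it.

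Next in order came C130074G19Rik (folds 3.69 in WDM-CDO and 3.40 in CDM-WDO), Ttll7, which encodes a tubulin polyglutamylase (3.65 and 3.83), and Gm15501 (3.95 and 3.89). Ttll7 had a second member further away, and its gene-end summits lay 8 and 25 bp upstream of the start. Brd2 encodes a reader of acetylated histones, and its member overlapped the divergent promoters of Brd2 and H2-DMa. Its folds were 2.04 and 2.14, on pileups of 115 and 76 reads and a local background of 55.9 and 34.9 reads. Both other lists had a peak close by, WDM-WDO at 810 bp and CDM-CDO at 907 bp. Sos1, the exchange factor that loads Ras with GTP, had folds of 3.10 and 3.19, and a CDM-CDO peak 417 bp away. Zbtb12 (3.46 and 3.0), Stx1a of the vesicle fusion machinery (3.17 and 3.03), 1700011L22Rik (4.33 and 3.24) and Vgll4, a cofactor that competes with YAP for TEAD factors (2.95 and 3.36), complete the 12.

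Away from gene ends, the 12 strongest members lay in or near genes of varied roles, of which 1, Eng, is in the endothelial list. Cavin1, which builds the coat of caveolae, the membrane pits abundant in endothelium, had a member inside the gene at chr11:100962372-100963180, with folds of 4.02 in WDM-CDO and 3.63 in CDM-WDO and pileups of 62 and 51 reads. Its summits were 9 bp apart. Cdh13, the gene of T-cadherin, a receptor for adiponectin and low-density lipoprotein on vascular cells, had the highest WDM-CDO fold of all members, 5.70, and 4.19 in CDM-WDO. That member lay 128260 bp from a WDM-WDO peak and 185579 bp from a CDM-CDO peak. Eng, the gene of endoglin, a TGF-beta coreceptor of endothelial cells, had a member inside the gene, 8237 bp from its start, with folds of 3.07 and 3.32 and 41 reads in both lists.

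Svop, a synaptic vesicle gene, had folds of 4.43 in WDM-CDO and 3.9 in CDM-WDO. Sox13, a SOX factor gene, had 3.95 and 3.9, Ablim1, which encodes an actin-binding LIM protein, 4.38 and 3.82, and Jarid2, a subunit of the polycomb complex that methylates histone H3, 5.14 and 4.47. Near 1700001F09Rik the folds were 4.40 and 4.47, near the elongation factor gene Tcea2 3.06 and 2.98, in the coiled-coil gene Tacc2 3.52 and 3.5, and in the ceramidase gene Acer2 4.47 and 3.92. The Sfi1 member had pileups of 205 and 215 reads, the highest of all members, on a local background of 115 and 122 reads, with folds of 1.78 and 1.76. It is 1 of 13 members whose local background was at least 3 times the genome background of 5.59 reads in WDM-CDO or 5.49 in CDM-WDO. Of the other genes named in this text, Tcea2, Brd2, Mafk, Angptl4, Cpt1a, Bcar1 and Ccr10 had such members.

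Members rarely clustered on a gene. Among 471 genes nearest to a member, 21 had exactly 2 and 1 had 3. That gene was Ptprr, a tyrosine phosphatase that acts on MAP kinases. Its members had folds of 3.32, 3.31 and 2.81 in WDM-CDO and 3.77, 3.13 and 2.72 in CDM-WDO, and the weakest of them overlapped the promoter window. The nearest WDM-WDO peaks were 9825, 29445 and 216790 bp away.

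Regions near genes of endothelial identity were more often members than other regions were. Of 79 merged regions whose nearest gene within 100 kb was 1 of 20 such genes, 10 were members (12.7%, 7.02 to 21.8%), against 1.28% of all merged regions. Turned round, they made up 1.63% of the members, 0.199% of the opposite pattern and 0.165% of all regions. Regions held by both member lists and CDM-CDO had a like share, 8 of 518 (1.54%), and those held by both and WDM-WDO 5 of 998 (0.501%). Regions near these genes were already known from the same lists to be frequent in WDM-CDO and in CDM-WDO, so the count over members is not independent support. It was 6 with a −log10 q of at least 3 asked of both member lists, and 5 with each list at the length of the shortest. With every gene within 100 kb counted, 13 of 198 regions were members (6.57%, 3.88 to 10.9%). The 10 members lay at 7 of the 20 genes.

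Cdh5, the gene of VE-cadherin, which holds endothelial junctions, had 2 members. The stronger lay 4801 bp from the gene at chr8:104095632-104096812, with folds of 3.38 in WDM-CDO and 3.04 in CDM-WDO. The weaker lay 78221 bp away, with 2.61 and 2.48. In all, Cdh5 had 6 regions in WDM-CDO, 4 in CDM-WDO, 3 in WDM-WDO and 1 in CDM-CDO. These counts hold the 2 members, which the rule places in WDM-CDO and CDM-WDO. The order was not that of every gene of the list, as Emcn had 1, 2, 0 and 3 regions.

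Erg had 2 members inside the gene. The stronger, at chr16:95438989-95439707, had folds of 2.59 in WDM-CDO and 2.71 in CDM-WDO. That at the promoter window printed above, of a start inside the gene, had 2.62 and 2.85. No CDM-CDO peak stood within 125798 bp of the promoter member, and no WDM-WDO peak within 12615 bp. Erg had 7 regions in WDM-CDO, 3 in CDM-WDO, 1 in WDM-WDO and 1 in CDM-CDO. Its 2 members, which the rule places in WDM-CDO and CDM-WDO, are among them. The Cldn5 member, at chr16:18776023-18777517, had folds of 2.99 and 2.66. Its summits, 666 bp apart, lay on either side of the start, so the 2 lists did not place the same base there.

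Egfl7, which encodes a secreted factor of endothelial cells, had 2 members upstream of the gene, 2239 and 8847 bp from it, with folds of 2.19 and 2.26 in WDM-CDO and 2.42 and 2.45 in CDM-WDO. A WDM-WDO peak stood 606 bp from the further one. Egfl7 had 3 regions in WDM-CDO, 2 in CDM-WDO, 2 in WDM-WDO and 0 in CDM-CDO. Those of WDM-CDO and CDM-WDO include the 2 members, by the rule. Pecam1, an adhesion protein of the endothelial junction, had a member inside the gene with folds of 2.24 and 2.76. The Sox17 member had 3.05 and 2.70. The other 13 genes of the list, Kdr, Tie1, Tek, Fli1 and Vwf among them, had no member, and Sox18, Robo4 and Plvap had no region in any list.

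Other values of the endothelial list did not all follow the member pattern. Regions near its genes numbered 54 in WDM-CDO (0.191% of the list's regions), 41 in CDM-WDO (0.218%), 31 in WDM-WDO (0.119%) and 28 in CDM-CDO (0.127%). These counts hold the 10 members, which the rule places in WDM-CDO and CDM-WDO. Without the members they were 44, 31, 31 and 28 in the same order. CDM-WDO then equalled WDM-WDO in number but not in share, as its list held 18839 regions against 26007. A gene-end peak was present at 8 of the 20 genes in WDM-CDO, 6 in CDM-WDO, 5 in WDM-WDO and 6 in CDM-CDO. At the 9 endothelial regions of all 4 lists, the median log2 ratio of scaled pileup over CDM-CDO was 0.43 for CDM-WDO, against 0.06 for WDM-CDO and 0.04 for WDM-WDO. It was above 0 at 7, 7 and 5 of these 9 regions.

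White blood cell markers had their lowest count in CDM-WDO. Regions near 53 markers of macrophages, T cells, B cells and neutrophils numbered 87 in WDM-CDO (0.308%), 32 in CDM-WDO (0.170%), 84 in WDM-WDO (0.323%) and 70 in CDM-CDO (0.318%), and a gene-end peak was present at 20, 8, 25 and 18 of the genes. The pooled count joins lists that went apart. Regions near macrophage and monocyte markers numbered 17, 11, 35 and 14 in the same order. As shares of each list's regions these were 0.0603, 0.0584, 0.135 and 0.0635%, so CDM-WDO was close to WDM-CDO and CDM-CDO. Those near T cell markers numbered 50, 13, 27 and 41 (0.177, 0.0690, 0.104 and 0.186%). B cell markers had 15, 6, 15 and 14 regions, and neutrophil markers 5, 2, 7 and 1. At the 17 white cell regions of all 4 lists the median log2 ratio of scaled pileup over CDM-CDO was 0.04 for CDM-WDO, against 0.03 for WDM-CDO and −0.02 for WDM-WDO. The median scaled pileup itself was 48.9 in CDM-WDO, against 68.4 in WDM-CDO, 66.2 in WDM-WDO and 66.9 in CDM-CDO. All 17 regions hold a CDM-WDO peak, so they cannot show peaks missing from that list. Just 1 of the 156 merged regions near them was a member (0.641%, 0.113 to 3.54%), inside Ebf1, a factor of B cells, with folds of 2.58 in WDM-CDO and 3.12 in CDM-WDO. In bulk samples, fewer cells of a type and less open chromatin per cell cannot be told apart. The part of such a difference in cell makeup in the endothelial members was not tested. Of the other marker lists, fibroblast markers had 1 member of 24 regions, near Col1a2, adipocyte markers 1 of 23, near Fabp4, and smooth muscle and red cell markers none of 22 and 6.

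**Figure D4:**
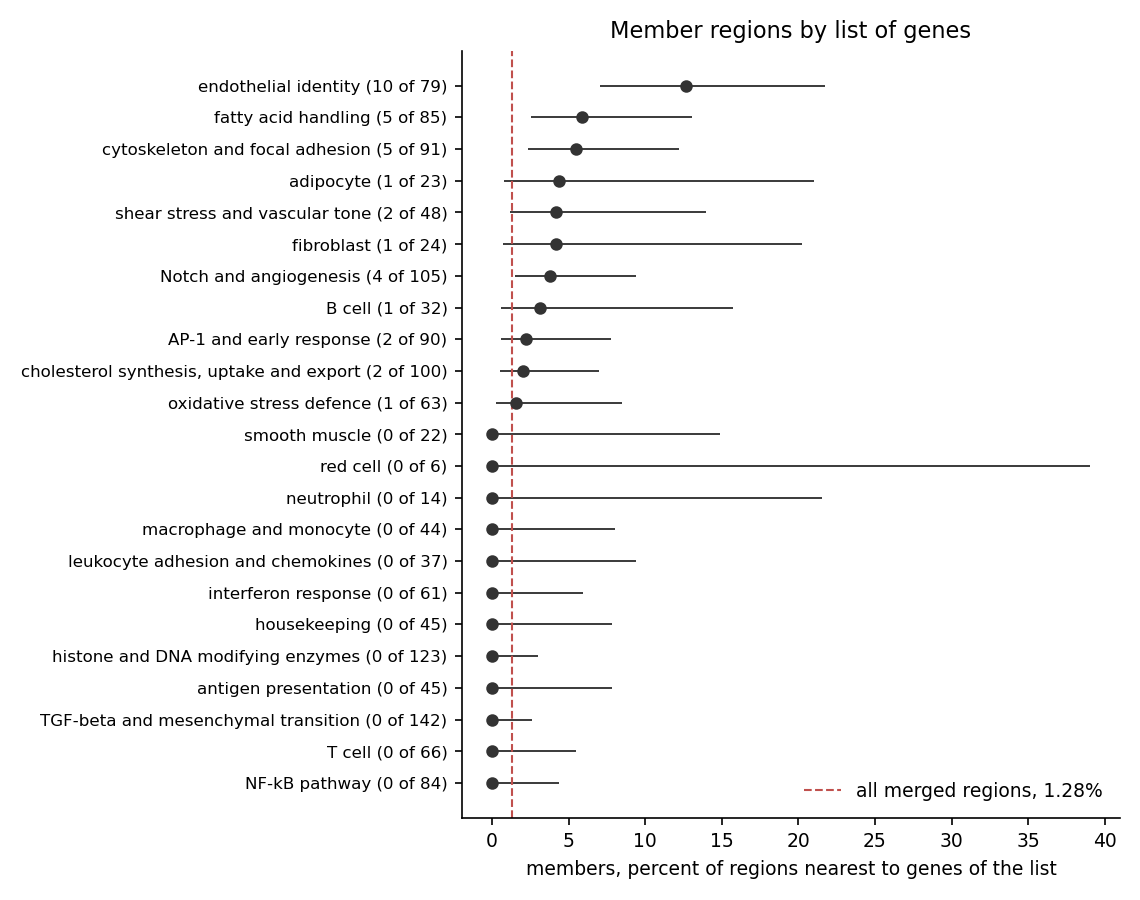
Members as a percent of all merged regions nearest to the genes of each of 23 lists (points, with 95% Wilson intervals; the counts stand beside the names). The dashed line marks the 1.28% of all merged regions. The endothelial list, with 10 of 79, is the highest, and 12 lists have no member.

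Lipid genes gave a few members. Of 85 regions near genes of fatty acid handling, 5 were members (5.88%, 2.54 to 13.0%). Meox2, a homeobox factor that in mice promotes fatty acid uptake by heart endothelium, had folds of 3.19 in WDM-CDO and 3.24 in CDM-WDO at a region 93238 bp from the gene. The fatty acid transporter gene Slc27a4 had 2.59 and 3.19, and Angptl4, whose product inhibits lipoprotein lipase, 2.97 and 2.36. Cpt1a, which admits fatty acids to the mitochondrion, had 3.06 and 2.21, and Fabp4, a fatty acid carrier, 2.70 and 2.61. The Angptl4 and Cpt1a members had a high local background and peaks of the other lists close by. For Angptl4 a WDM-WDO peak stood at 676 bp and a CDM-CDO peak at 1206 bp, and for Cpt1a at 1165 and 1283 bp. Of 100 regions near genes of cholesterol synthesis, uptake and export, 2 were members. Soat1, which esterifies cholesterol, had 2.96 and 4.75, with 21 reads in WDM-CDO and 33 in CDM-WDO. Abca1, which exports cholesterol, had 2.54 and 3.48. Within 10 kb of a gene 4 fatty acid members and 1 cholesterol member were left.

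Focal adhesion and angiogenesis genes gave a similar number. Of 91 regions near cytoskeleton and focal adhesion genes 5 were members (5.49%, 2.37 to 12.2%). Ptk2, the gene of focal adhesion kinase, had the strongest, with folds of 3.15 in WDM-CDO and 3.78 in CDM-WDO. The small GTPase gene Rhob had 2.61 and 3.15, its effector kinase Rock1 3.65 and 3.08, the adaptor gene Bcar1 3.27 and 2.13, and the integrin gene Itgb1 2.73 and 2.62. Of 105 regions near Notch and angiogenesis genes 4 were members (3.81%, 1.49 to 9.39%). Pdgfb, the factor by which endothelium recruits mural cells, had 2 of them, with 2.66 and 2.58 in WDM-CDO and 2.36 and 2.30 in CDM-WDO. With the nearest gene asked to lie within 10 kb, 2 focal adhesion members and 1 Notch and angiogenesis member were left. The Notch ligand genes Dll4 and Jag1 had 2.79 and 2.73 in WDM-CDO and 2.29 and 2.76 in CDM-WDO.

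In the shear stress and vascular tone list 2 of 48 regions were members, at Agtr1a, an angiotensin receptor gene (folds 4.16 in WDM-CDO and 2.85 in CDM-WDO), and at Gucy1a1, a subunit of the nitric oxide receptor (3.10 and 2.71). The Gucy1a1 member overlapped the promoter. Of AP-1 and early response genes 2 of 90 regions were members, inside Mafk (2.10 and 2.68) and 95979 bp from the orphan receptor gene Nr4a3 (2.97 and 3.49). Of oxidative stress genes 1 of 63 was, 30998 bp from Gclc, which makes glutathione (3.21 and 3.20). These shares, 4.17, 2.22 and 1.59%, rest on 1 or 2 regions each, and within 10 kb the AP-1 count was 1 and the oxidative stress count 0.

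In the lists of inflammatory genes, no gene was the nearest to a member. None was found among 84 regions near NF-kB pathway genes (upper limit 4.37%), 61 near interferon response genes (5.92%), 45 near antigen presentation genes (7.87%) or 37 near leukocyte adhesion and chemokine genes (9.41%). Genes of TGF-beta signalling and mesenchymal transition had none of 142 (2.63%), histone and DNA modifying enzymes none of 123 (3.03%) and housekeeping genes none of 45 (7.87%). At a share of 1.28% lists of this size would hold few members, so an empty list says little. The lists are not complete either. Ccr10, a chemokine receptor gene outside them, had a gene-end member with folds of 2.81 in WDM-CDO and 2.14 in CDM-WDO. A nearest-gene count can also pass over a promoter, as the member given to Brd2 covered 104 of 300 bases of the H2-DMa window. With every gene within 100 kb counted in place of the nearest, these lists had members too, 1 for NF-kB and for histone and DNA modifying enzymes and 2 for each of the other lists named here. By the nearest gene, 33 of 1419 regions of all lists together were members (2.33%, 1.66 to 3.25%).

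Promoters were the one place where sequence could be set beside the members. In all, 61 of 601 members with usable windows overlapped a promoter window (10.1%, 7.98 to 12.8%), against 20.6% of all regions. They overlapped 71 windows of 65 genes, and 30 windows lay whole inside their member. At 54 of the 71 pairs of member and window both summits lay within 300 bp of the start. The windows had a median GC content of 62.0% and 16 CG dinucleotides. Windows of regions of all 4 lists had 62.3% and 23, those of the opposite pattern 56.5% and 14, and all 32619 windows 53.0% and 7. Member promoters were thus as rich in G and C as those open in every group, with fewer CG pairs.

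The KLF motif CCACCC, which endothelial KLF factors and others bind, matched 38 of the 71 windows (53.5%, 42.0 to 64.6%). It matched 30.6% of the windows of the opposite pattern, 36.4% of those of all 4 lists and 31.6% of all windows. The GC box GGGCGG, whose matches can share bases with KLF matches, was found in 53.5% of member windows too, 52.8% of the opposite pattern, 70.1% of all 4 lists and 35.9% of all windows. The GATA motif AGATAA was found in 14.1% (7.83 to 24.0%) of member windows, against 13.9, 4.75 and 11.2% of the other sets in the same order. The ETS motif CCGGAA stood at 22.5% (14.4 to 33.5%) against 25, 32.9 and 15.0%, and the CCAAT box at 28.2% (19 to 39.5%) against 30.6, 40.6 and 37.6%. Windows of 1 gene can overlap each other, so the 71 windows are not independent. Shares of the AP-1 motif TGANTCA (8.45%, against 7.85% of all windows) and of the SOX motif ACAATGG (4.23%, against 3.68%) were near those of all promoters.

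**Figure D5:**
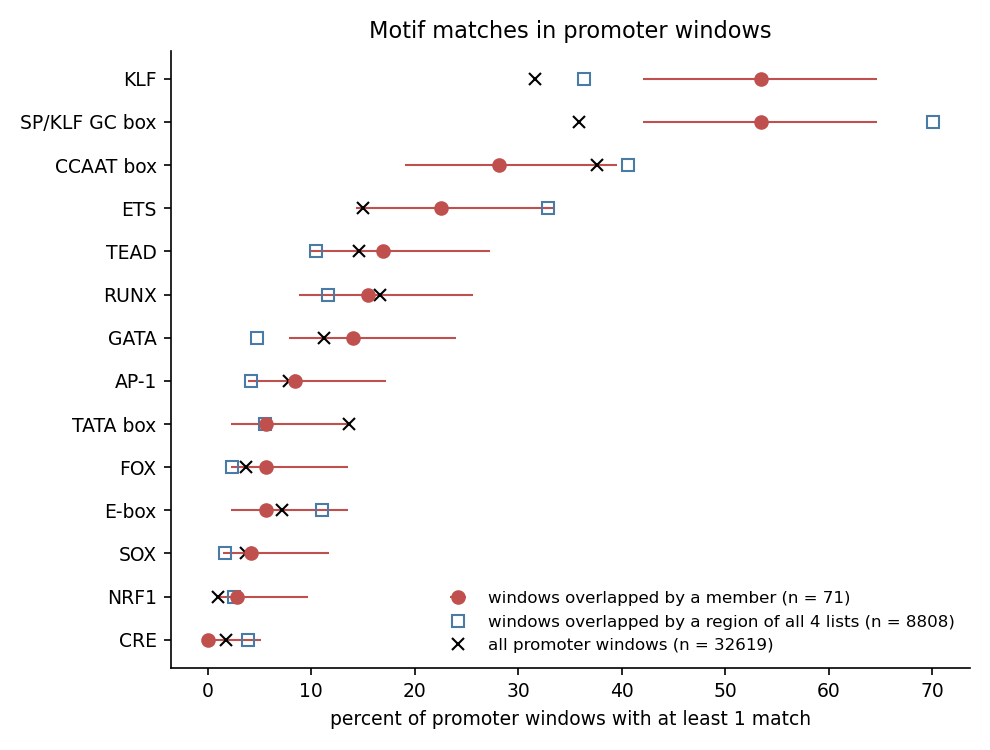
Share of promoter windows with at least 1 match to each of 14 motifs, on either strand (x axis, percent), for the 71 windows overlapped by a member (red, with 95% Wilson intervals), the 8808 overlapped by a region of all 4 lists (squares) and all 32619 windows (crosses). The KLF motif, with 53.5% of member windows, is the one whose interval lies above both other sets, and the GC box lies between them.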

How the data were processed

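The series holds 12 samples, of which 8 are ATAC-seq, 2 for each of 4 groups. The other 4, for the mark H3K27ac, were not analysed here. The authors deposited 1 narrowPeak list per group, and the sources used here do not give whether its 2 samples were pooled first. Per the submitters' processing notes, MACS2 2.2.9.1, Bowtie2 2.4.5 and the build GRCm38 (mm10) were used, with SAMtools 1.13, deepTools 3.5.4, Trim Galore 0.6.10 and FastQC 0.12.1. Their notes, as used here, name no shift of read ends. Fold enrichment, a ratio, and the −log10 p and −log10 q values were used as the authors deposited them, to describe, rank and filter peaks within a list. The deposited summit offsets gave the summit positions, and the deposited display score was not used.

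Repeated intervals were counted once, and the peaks were merged in Python 3.11.15, with a result equal to that of bedtools 2.31.1. Artefact-prone regions were not removed. Pileups were recovered from fold and −log10 p under the Poisson rule of MACS2, and the recovery was tested on simulated peaks. Depth per sample was not used here, so this pileup is the measure of depth. Genes were 21631 protein-coding genes of a RefSeq table of GRCm38.p6 that gives no strand, so either end within 1 kb counts as a gene end, and a region takes the nearest gene within 100 kb. All 432 genes of 23 lists matched. The named members were, by the weaker of the 2 −log10 q values, the 12 strongest at gene ends, the 12 strongest elsewhere, genes with 3 or more members, up to 3 members per gene list, and regions at the threshold. Further list members (Cpt1a, Bcar1, Itgb1, Jag1, Cldn5, Pecam1, Sox17, Egfl7 and the second member of Erg and Cdh5) were named after their values were seen. The members, lists and alternatives were chosen with earlier results of these data known.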

Additional observations from a re-analysis of the deposited data

How the results depend on the processing

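With 1 list per group, nothing here has a replicate, and no paired analysis was possible because each group has 1 list. The number of members fell most when weak peaks were dropped. It was 368 with a −log10 q of at least 3 in every list, 273 with that limit in WDM-CDO and CDM-WDO only, and 297 with each list cut to the length of the shortest. Of those 297, 196 were among the reported members. The share at a gene end was 16.3% with the limit of 3 in every list and 20.2% with equal lengths. It was 9.77% within 500 bp, 16.6% within 2 kb and 10.1% by promoter windows. The share inside a gene was 52.2% with equal lengths. Median fold in WDM-CDO was 2.97 with a −log10 q of at least 2 in every list, 3.15 and 3.11 with the limits of 3, and 3.34 with equal lengths. In CDM-WDO it was 2.99, 3.16 and 3.18 with those limits on −log10 q. Alternatives for the endothelial count were chosen after seeing the data, apart from those on gene distance. The count was 6 of 71 regions (8.45%) with the limit of 3 in the member lists only, 5 of 56 (8.93%) with equal lengths and 13 of 198 (6.57%) with every gene within 100 kb. Otherwise it was 8 to 11, or 10.1 to 16.7% of the regions near these genes. Over all lists, 21 members had their nearest gene within 10 kb, and 56 had any listed gene within 100 kb. Of 44 counts for single lists other than the endothelial one, 16 moved by over 1.5 times under these distances. Without the 13 members of high local background, 601 members and all 10 endothelial ones stayed.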
